A study of Mus musculus with 14 samples.

Results

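Retinal microglia from microbead-injected eyes were compared with the mean of 2 control groups, sham-injected and naive, by RNA sequencing. The comparison took in 11 of the 14 libraries of the series, chosen by their titles: 3 microbead, 4 sham and 4 naive. The sham and naive groups entered the control mean with equal weight, so that each of the 2 control conditions counted the same. The other 3 libraries came from contralateral retinas. They were not compared, but entered the gene filter, the scaling between libraries and the estimate of the spread between replicates. The mice of every group are labelled as wild-type C57BL/6 animals aged 12 weeks. The microbead group is labelled as a glaucoma model. Each library held the microglia of 1 retina and was made by SMART-Seq2, which copies whole transcripts from small cell numbers. Cells were sorted as CD11b-positive, Ly6c-negative and Fcrls-positive, and 100 to 600 were collected from a retina. The labels give neither the time after injection nor the mouse behind each retina, so p-values measure the spread between these libraries, which may be technical.

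Microglia are macrophages that live in the retina and survey it. In the resting state they express a homeostatic program maintained by TGF-beta and Csf1r signalling, with Cx3cr1, P2ry12 and Tmem119 among its markers. In degenerating nervous tissue they can pass into a state known as MGnD or disease-associated, in which Apoe, Gpnmb, cathepsins, lipid-handling and antigen-presentation genes rise and the homeostatic genes fall. Injected microbeads block the outflow of fluid from the front of the eye, raise intraocular pressure and damage retinal ganglion cells, whose axons form the optic nerve. The comparison asks which genes of the sorted microglia differ after microbead injection from the mean of sham-injected and naive retinas.

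The 11 libraries held 1.34 to 13.9 M (mega) estimated reads, with a median of 12.0 M. Microbead replicate 1 was the shallowest, with 1.34 M reads and 10167 genes detected, against 13773 and 14969 in microbead replicates 2 and 3. The microbead libraries also differed from the controls by transcript length, which the tables give for each gene. Relative to the control mean, genes of at most 1000 bases lay above genes of over 4000 bases by 1.85, 0.74 and 1.19 on the log2 scale in the 3 microbead libraries. The same difference lay between -0.09 and 0.10 in the 4 sham libraries and between -0.32 and 0.11 in the 4 naive libraries. In the contralateral libraries it was 0.42, 0.90 and -0.31. Length therefore separated the microbead libraries from all 8 controls but not from contralateral replicate 2, which lay above microbead replicate 2. The median of each gene list is given also with a smooth trend on length removed from each library.

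The sorted population carried its defining markers in every group. Itgam, which encodes the CD11b chain used for sorting, stood at 360, 304 and 464 CPM, counts per M reads of a library, in the microbead group. Its log2 fold change against the control mean was -0.01 ± 0.24 (SE), and the difference did not pass the test (adjusted p = 0.993). Fcrls, the sorting marker held to separate microglia from recruited myeloid cells, averaged 724 ± 266 CPM (SD, n = 3) in microbead, 625 ± 164 (n = 4) in sham and 704 ± 210 (n = 4) in naive. Ly6c2, a monocyte marker on the excluded side of the gate, had 0 reads in all 14 libraries.

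Of 14279 genes tested with edgeR's quasi-likelihood test, 160 were higher in microbead (1.12% of genes) and 23 were lower (0.161%) at a Benjamini-Hochberg adjusted p under 0.05. Together they made up 183 genes (1.28%). Over all genes tested, the median log2 fold change was -0.12. Of the 160 rises, 56 were ribosomal protein genes, 29 were pseudogenes, 6 were other predicted genes and 69 were other named genes. Among all 14279 genes tested, these classes held 92, 932, 2125 and 11130 genes in the same order. Reads of ribosomal protein genes and of their many processed pseudogenes can be exchanged in counting, so the calls on pseudogenes are uncertain. Of the 160, 123 (76.9%) had transcripts of at most 1000 bases, against 14.5% of all genes tested. Without the shallow microbead replicate 1, 23 genes were higher and 4 lower, of which 17 and 3 were shared with the full comparison. With the length trend removed, the same edgeR test called 10 genes higher (0.07%) and 0 lower (0%), with 1833 genes at an unadjusted p under 0.05 in either direction. The median of all genes moved from -0.12 to 0.05, and no other tool was run with the trend removed.

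**Figure D1:**
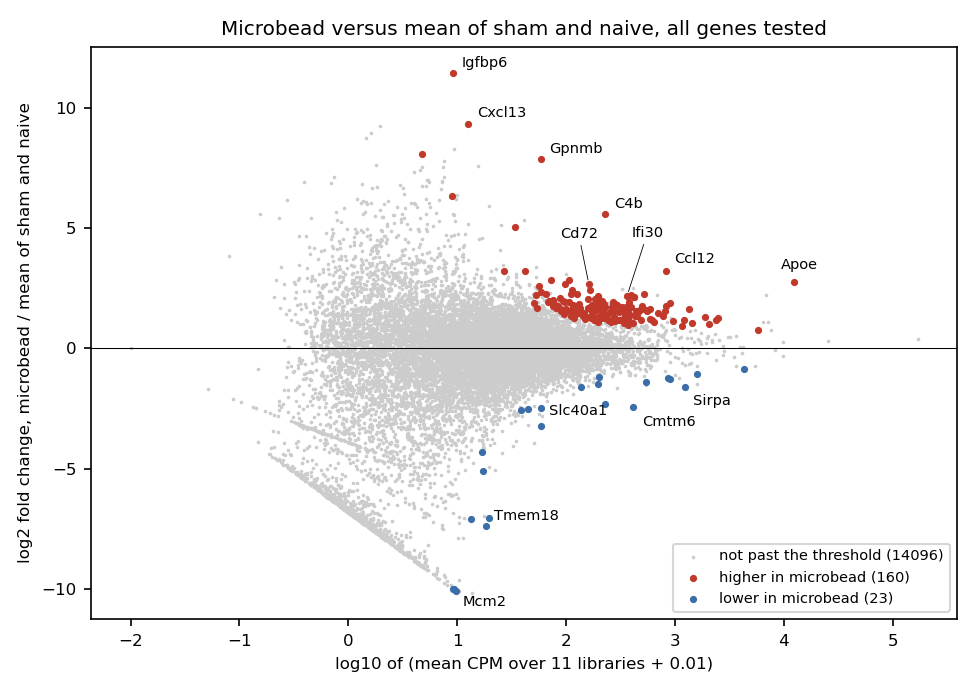
Log2 fold change of microbead against the mean of sham and naive (vertical) by mean CPM over the 11 libraries on a log10 scale (horizontal), 1 point per gene tested. Red points are the 160 genes called higher, blue points the 23 called lower and grey points the rest. C4b lies at 5.57, with Ccl12 at 3.19, Apoe at 2.77 and Cd72 at 2.67, and genes with 0 reads in all microbead libraries form the lower diagonal edge.

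The rises with the smallest p-values were C4b, Cd72 and Apoe. C4b encodes complement component C4, which is cleaved on a target surface in the classical complement pathway. C4b stood at 939, 930 and 459 CPM in the microbead libraries, at 35.9, 97.1, 10.9 and 29.0 CPM in sham, and at 11.4, 4.72, 7.16 and 1.64 CPM in naive. Every microbead library lay far above every control, and sham lay above naive on average. The log2 fold change of C4b was 5.57 ± 0.62 (SE; adjusted p = 0.000693), and 6.20 with the length trend removed (adjusted p = 0.000622). C4b lies on chromosome 17 at 34728380 to 34743882 (mm10, minus strand). Reads of C4b and its near-identical neighbour C4a can be exchanged in counting, and C4a was listed at 2.15, 7.92 and 21.6 CPM in microbead.

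Cd72 encodes an inhibitory lectin-like receptor that is best known on B cells. Cd72 stood at 211, 405 and 638 CPM in microbead, at 78.5, 86.3, 62.4 and 58.5 CPM in sham, and at 71.7, 61.8, 61.1 and 47.7 CPM in naive. The lowest microbead library was thus above the highest control, and the 2 control groups overlapped. The log2 fold change of Cd72 was 2.67 ± 0.33 (adjusted p = 0.00115) and hardly moved with the length trend removed (2.66, adjusted p = 0.00258). Cd72 lies on chromosome 4 at 43446462 to 43454628, where 1423 exon bases overlap Tesk1 on the opposite strand. Reads of the pair cannot be told apart without strand. Tesk1 was listed at a mean of 9.68 CPM in microbead, 5.60 in sham and 15.3 in naive, values that rest on the same assignment of reads.

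Apoe encodes apolipoprotein E, the main lipid carrier of the central nervous system and a core gene of the MGnD state. Apoe stood at 19622, 53582 and 24312 CPM in microbead, at 3284, 4928, 5568 and 3268 CPM in sham, and at 7578, 5380, 4969 and 3472 CPM in naive. The lowest microbead library held more than the highest control. The mean was 32505 ± 18403 CPM (SD, n = 3) in microbead against 4262 ± 1168 (n = 4) in sham and 5350 ± 1697 (n = 4) in naive. The log2 fold change of Apoe was 2.77 ± 0.35 (adjusted p = 0.00115), and 2.59 with the length trend removed (adjusted p = 0.00146). Per length, the Apoe level was 35442 TPM (transcripts scaled to length and depth) in microbead, 7145 in sham and 9105 in naive. C4b, Cd72 and Apoe stayed past the threshold when any of the 11 libraries was left out, with a highest adjusted p of 0.00518 for C4b and Cd72 and 0.00920 for Apoe, whose log2 fold change was 2.18 without microbead replicate 2.

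**Figure D2:**
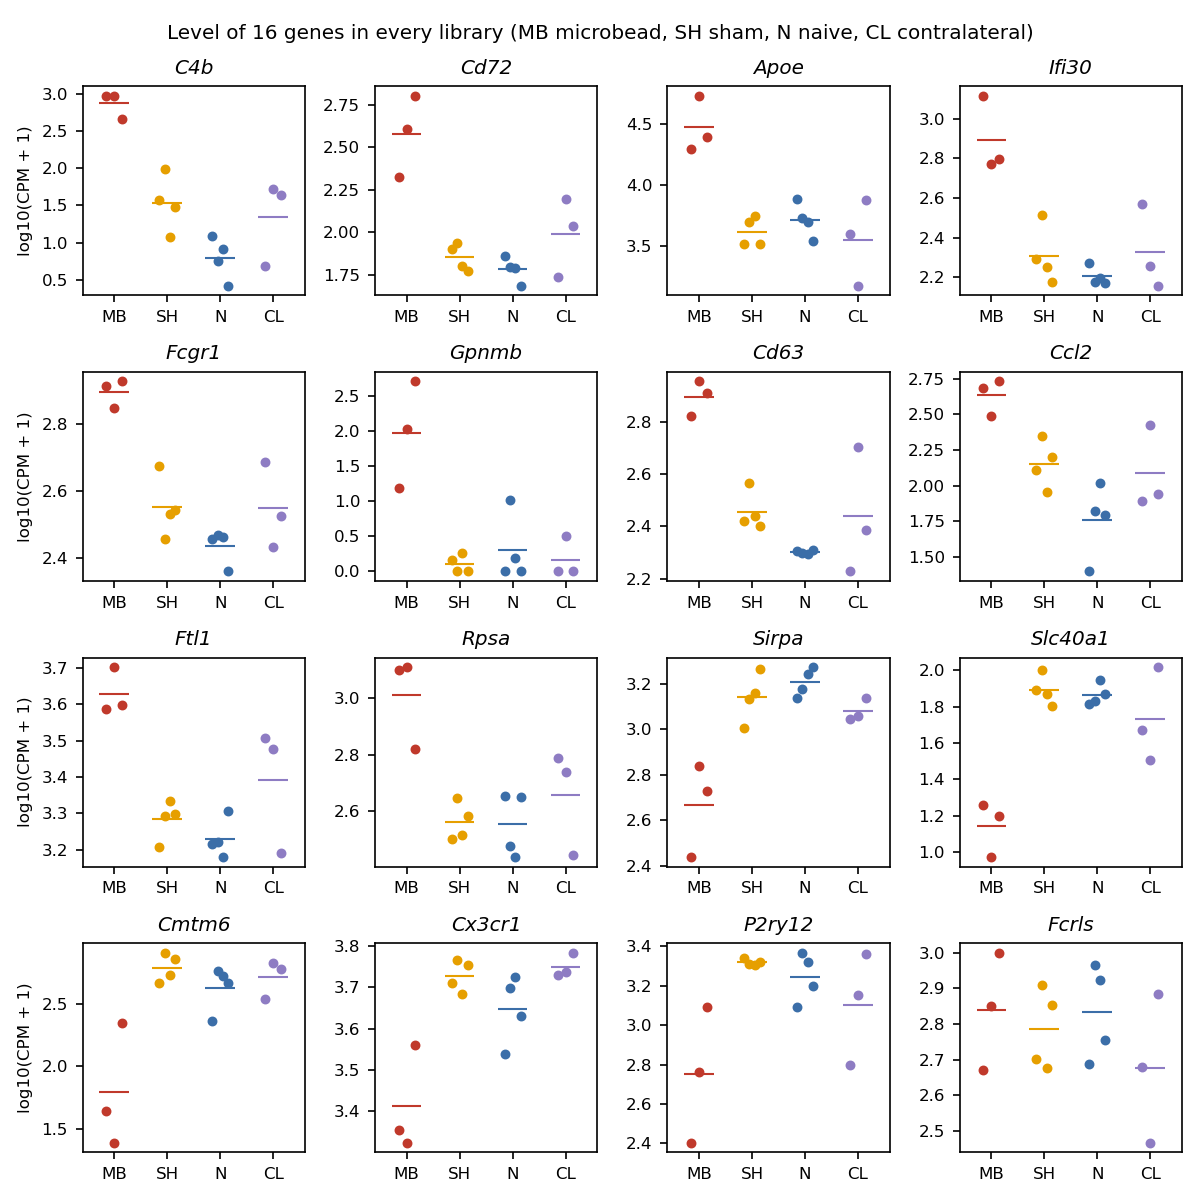
Level of 16 genes in each of the 14 libraries, as log10 of CPM plus 1, with 1 point per library and a line at the mean of those log values. In C4b, Cd72, Apoe, Ifi30, Fcgr1, Gpnmb, Cd63, Ccl2, Ftl1 and Rpsa every microbead point lies above all sham and naive points, and in Sirpa, Slc40a1 and Cmtm6 every one lies below, while Fcrls does not separate the groups.

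The promoters of 3 of the genes with the largest rises are shown, each of which holds a match to a motif searched. Apoe, Gpnmb, Wfdc17 and Cd300lf were among the rises whose promoter held no match. RefSeq promoters, the 250 bases before the annotated start in GRCm38.p6, were found for 12 of the 15 largest rises and for 9 of the largest falls. Capitals mark matches on either strand to motifs searched: NF-kB-like (GGGA, any 4 bases, CC), AP-1 (TGANTCA) and PU.1-like (GAGGAAGT). PU.1 is the lineage factor of macrophages, and NF-kB and AP-1 are general inflammatory factors. Cd72 lies at chr4:43454627-43454876 and has a PU.1-like match on the opposite strand. Ifitm3 lies at chr7:141010745-141010994 and has an NF-kB-like match followed by an AP-1 match. Cxcl13 lies at chr5:95956689-95956938 and has an NF-kB-like match. The first 2 are on the minus strand and the last on the plus strand, each printed 5′ to 3′ along its own gene.
Cd72: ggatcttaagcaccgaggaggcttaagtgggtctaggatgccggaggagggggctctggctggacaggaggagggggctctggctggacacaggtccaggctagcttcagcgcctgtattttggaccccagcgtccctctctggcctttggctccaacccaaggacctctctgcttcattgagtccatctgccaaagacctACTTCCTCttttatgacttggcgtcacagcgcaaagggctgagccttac
Ifitm3: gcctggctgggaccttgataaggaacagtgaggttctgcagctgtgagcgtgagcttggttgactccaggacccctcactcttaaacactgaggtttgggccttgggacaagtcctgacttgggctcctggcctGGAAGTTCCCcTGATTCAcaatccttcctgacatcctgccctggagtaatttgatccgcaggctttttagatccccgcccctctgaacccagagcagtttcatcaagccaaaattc
Cxcl13: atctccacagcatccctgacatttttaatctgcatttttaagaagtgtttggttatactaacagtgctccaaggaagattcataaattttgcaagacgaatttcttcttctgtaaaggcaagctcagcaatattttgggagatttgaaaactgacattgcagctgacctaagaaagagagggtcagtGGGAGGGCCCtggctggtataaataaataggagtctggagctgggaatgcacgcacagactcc
The NF-kB-like motif was present in 2 of the 12 promoters of rises, 3 of the 9 of falls and 17.63% of all 32851 promoters in the table. AP-1 was present in 1 of 12 rises, 0 of 9 falls and 6.75% of all promoters. PU.1-like matches were present in 2 of 12 rises (Cd72 and Rpl36a), 0 of 9 falls and 2.44% of all promoters. The interferon-response core (GAAA, any 2 bases, GAAA) was in 0 of either set and in 2.98% of all promoters.

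Several genes of the MGnD state rose. Of 33 genes listed, 11 rose (33.3% against 1.12% of all genes tested), 0 fell, and 28 had a positive log2 fold change. Their median log2 fold change was 1.27, against -0.12 for all genes tested. Besides Apoe the rises were Cd63, Fth1, Cd52, Tspo, Ccl2, Gpnmb, B2m, Ctsl, Tyrobp and Ccl4. Without microbead replicate 1, 4 of the 33 rose and the median was 0.99. With the length trend removed, Apoe and Gpnmb rose and the median was 0.75, against 0.05 for all genes.

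Gpnmb, a transmembrane glycoprotein of lysosomes that marks phagocytes under lipid load, stood at 14.4, 106 and 516 CPM in microbead. In the controls, Gpnmb was at 0.446, 0, 0.835 and 0 CPM in sham and at 0, 9.59, 0.557 and 0 CPM in naive. The microbead libraries all lay above the controls but differed among themselves over a wide range. The log2 fold change of Gpnmb was 7.86 ± 1.44 (adjusted p = 0.0126), and 7.88 with the length trend removed (adjusted p = 0.0443). Its call was lost without microbead replicate 3 (6.01, adjusted p = 0.108), and the log2 fold change was 9.63 without naive replicate 2. Cd63, a tetraspanin of late endosomes, stood at 664, 902 and 811 CPM in microbead, against 250 to 368 in sham and 196 to 202 in naive. Its log2 fold change was 1.72 ± 0.26 (adjusted p = 0.00532), it passed the threshold without any 1 of the 11 libraries, and with the length trend removed it was 1.29 (adjusted p = 0.119).

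Other defining genes of the MGnD state did not pass the test. Trem2, the lipid receptor upstream of the state, averaged 1982 ± 328 CPM in microbead, 1663 ± 59.0 in sham and 1518 ± 139 in naive, a log2 fold change of 0.32 ± 0.20 (adjusted p = 0.548). Axl, a receptor for dying cells, had a log2 fold change of 0.09 ± 0.36, and Clec7a, a lectin receptor, one of -0.30 ± 0.57. Lpl, the lipoprotein lipase, had one of -0.28 ± 0.91, and Itgax, the CD11c chain, one of 1.38 ± 0.90, or 0.54 without microbead replicate 2. Without that library Axl was at -0.67. Spp1, the secreted protein osteopontin, was detected in microbead replicate 2 alone of the microbead libraries, at 62.7 CPM, as was the growth factor Igf1 at 31.9 CPM. Lgals3, a galectin that binds damaged lysosomes, stood at 111, 111 and 184 CPM in microbead, against 0, 40.2, 0 and 0 in sham and 0, 2.25, 2.07 and 0 in naive. Its groups did not overlap, yet its log2 fold change of 5.34 ± 1.55 missed the threshold (adjusted p = 0.124), but passed it without sham replicate 2 (10.17, adjusted p = 0.0106). Cst7, an inhibitor of cathepsins, likewise lay above all controls at 94.1, 124 and 58.0 CPM and missed it (2.75 ± 0.94, adjusted p = 0.226).

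Complement and Fc receptor genes were among the rises. In the complement list 2 of 17 measured genes rose (11.8% against 1.12% of all genes tested), C4b and C1qb, and 0 fell. The list's median was 0.49, or 0.75 with the length trend removed. C1qb, a chain of the initiator C1q, stood at 7403, 8402 and 8718 CPM in microbead, against 4773 to 5635 in sham and 4441 to 4779 in naive. Its log2 fold change was small, 0.75 ± 0.17 (adjusted p = 0.0344), and its call was lost when any 1 of the 11 libraries was left out, with adjusted p up to 0.0989. C3, the central component, was at 0, 8.59 and 0.176 CPM in microbead and did not pass (adjusted p = 0.808). Without microbead replicate 1, C4b was the only complement gene called.

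In the list of phagocytosis and Fc receptor genes, 4 of 23 rose (17.4%) and 1 fell, with a median of 0.15 or, with the length trend removed, 0.52. Fcgr1 and Fcer1g were the 2 called without microbead replicate 1, where the log2 fold change of Fcer1g was 0.95. Fcgr1 encodes the high-affinity IgG receptor CD64. Fcgr1 stood at 819, 700 and 844 CPM in microbead, at 471, 285, 338 and 349 in sham, and at 286, 292, 289 and 228 in naive. The microbead libraries were close together and above every control. Fcgr1 had a log2 fold change of 1.32 ± 0.22 (adjusted p = 0.00774), and 1.79 with the length trend removed (adjusted p = 0.0149). It passed the threshold without any 1 of the 11 libraries. Fcer1g, the signalling chain that Fc receptors share, stood at 4628, 1509 and 1825 CPM against 736 to 937 in the controls. A log2 fold change of 1.65 ± 0.26 (adjusted p = 0.00711) dropped to 0.75 with the length trend removed (adjusted p = 0.264). Tyrobp, the adaptor of Trem2, rose by 1.16 ± 0.27 (adjusted p = 0.0362), but by 0.05 with the length trend removed (adjusted p = 0.968), and its adjusted p was 0.426 without microbead replicate 1. The call on Tyrobp held only on leaving out microbead replicate 2 or 3. Fcgr4, an activating IgG receptor, rose by 1.36 ± 0.31 (adjusted p = 0.0362), a call lost when any 1 library was left out. Elmo1, an adaptor for engulfment, was the list's fall and is described below.

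Several chemokine genes were higher. Of 20 measured chemokines and cytokines 4 rose (20% against 1.12% of all genes tested), namely Ccl12, Ccl2, Ccl4 and Cxcl16, and 0 fell. The list's median was 1.26, and 1.11 with the length trend removed, where 0 were called. It was 0.86 against sham alone and 1.52 against naive alone. Those 2 contrasts share the microbead libraries, and sham against naive had a median of 0.59 for this list. Ccl12, a ligand of Ccr2, stood at 4600, 485 and 1725 CPM in microbead, at 420, 742, 356 and 199 in sham and at 95.6, 170, 215 and 97.3 in naive. Microbead replicate 2 overlapped the sham range. Ccl12 had a log2 fold change of 3.19 ± 0.44 (adjusted p = 0.00279), or 1.75 with the length trend removed (adjusted p = 0.105), and 2.12 without microbead replicate 1 (adjusted p = 0.0504). Ccl2, another Ccr2 ligand, stood at 480, 309 and 539 CPM, above sham at 89.5 to 223 and naive at 24.0 to 103. Its log2 fold change was 2.19 ± 0.40 (adjusted p = 0.0121), and without microbead replicate 1 its adjusted p was 0.0815. Ccl4, a chemokine of activated macrophages, averaged 675 ± 422 CPM in microbead and overlapped sham at 235 to 413. Its adjusted p of 0.0483 became 0.511 without microbead replicate 1, and the call held only on leaving out microbead replicate 3 or naive replicate 3. Cxcl16, at 320, 285 and 290 CPM against 93.0 to 217 in the controls, had an adjusted p of 0.0487, and its call was lost when any 1 of the 11 libraries was left out. Without microbead replicate 1, 0 of the 20 were called.

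Cxcl13, a chemokine that attracts B cells, was outside that list but among the largest rises. It stood at 71.8, 14.6 and 51.6 CPM in microbead and was at 0 in every control except sham replicate 2, at 1.62 CPM. The adjusted p of Cxcl13 was 0.0228, and its call was lost on leaving out microbead replicate 1 (adjusted p = 0.138) or any of sham replicates 1 and 4 and naive replicates 2 and 3. Wfdc17, a small secreted protein of macrophages, stood at 139, 132 and 51.5 CPM against at most 27.7 in the controls (adjusted p = 0.0312, and 0.181 without microbead replicate 1). That call held only on leaving out microbead replicate 3, sham replicate 2 or naive replicate 3. Cd300lf, an inhibitory lipid receptor, was steady in microbead at 125, 133 and 101 CPM against 1.43 to 32.7 in the controls. A log2 fold change of 3.20 ± 0.75 (adjusted p = 0.0387) was lost as a call when any 1 of the 11 libraries was left out, with adjusted p up to 0.167.

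Interferon-response and antigen-presentation genes had mostly positive log2 fold changes and few calls. Of 34 interferon-response genes 2 rose (5.88%), Ifitm3 and Ifi27l2a, 0 fell and 28 had a positive log2 fold change. In 6 of the 34 every microbead library lay above all controls, against 3.26% of all genes tested. The median was 0.77, and 1.04 with the length trend removed, where 0 were called. Ifitm3, a membrane protein that restricts virus entry, stood at 437, 284 and 94.2 CPM in microbead against 53.1 to 77.7 in sham and 29.7 to 50.3 in naive. On the log2 scale the difference was 2.42 ± 0.39 (adjusted p = 0.00749), and 1.57 with the length trend removed (adjusted p = 0.136). Ifi27l2a, an interferon-induced mitochondrial protein, stood at 481, 264 and 93.8 CPM against 24.2 to 76.7 in the controls, with an adjusted p of 0.00774. When microbead replicate 1 was left out, the adjusted p was 0.0974 for Ifitm3 and 0.0971 for Ifi27l2a, and 1 other gene of the list was called.

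Of 15 measured genes of MHC class II presentation, 2 rose (13.3%), with a median of 0.91, or 0.76 with the length trend removed. Of 20 of MHC class I, 2 rose (10%), with a median of 0.71, or 0.54 with the trend removed. Of all genes tested, 1.12% rose. Every microbead library lay above all controls in 2 of the 15 class II and 5 of the 20 class I genes, against 3.26% of all genes tested. Ifi30, the lysosomal thiol reductase that prepares antigens for class II, stood at 1308, 587 and 626 CPM in microbead, at 195, 326, 178 and 150 in sham, and at 187, 149, 157 and 148 in naive. Every microbead library exceeded every control. Ifi30 had a log2 fold change of 2.19 ± 0.30 (adjusted p = 0.00279), and 1.96 with the length trend removed (adjusted p = 0.0271), and it held without any 1 of the 11 libraries. The class II chain gene H2-Aa itself stood at 366, 837 and 1699 CPM and overlapped the controls, where sham replicate 2 reached 846. It did not pass the test (adjusted p = 0.0886). H2-D1, a classical class I heavy chain, stood at 1315, 2962 and 2580 CPM and overlapped sham at 1025 to 1430. Against the control mean the log2 fold change was 1.06 ± 0.21 (adjusted p = 0.0181), and 1.37 with the length trend removed (adjusted p = 0.0123). The call on H2-D1 was lost without microbead replicate 2 (adjusted p = 0.136), microbead replicate 3 (0.0565) or sham replicate 4. B2m, the class I light chain, stood at 3735, 2753 and 3142 CPM against 1385 to 1883 in the controls. The difference from the control mean was, on the log2 scale, 1.00 ± 0.22 (adjusted p = 0.0279), and 0.51 with the length trend removed (adjusted p = 0.433). Its adjusted p was 0.189 without microbead replicate 1, and the call held only on leaving out microbead replicate 2.

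Lysosomal and iron-handling genes were raised in part. Of 34 lysosome and cathepsin genes 3 rose (8.82%), Gpnmb, Ctsh and Ctsl, 0 fell, and 27 were positive, with a median of 0.33 or 0.71 with the length trend removed. Ctsh, a cathepsin, stood at 1597, 1529 and 2124 CPM against 852 to 1063 in sham and 748 to 926 in naive. On the log2 scale the difference was 0.91 ± 0.18 (adjusted p = 0.0159), and it passed the threshold without any 1 of the 11 libraries but not with the length trend removed (0.89, adjusted p = 0.143). Ctsl, another cathepsin, stood at 1190, 1367 and 2234 CPM against 445 to 951 in the controls (adjusted p = 0.0312), and its call held only on leaving out naive replicate 3, with adjusted p up to 0.165.

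In the iron and oxidative stress list 3 of 22 genes rose (13.6%) and 1 fell, with a median of 0.57, or 0.48 with the length trend removed, where 0 were called. Ftl1 and Fth1 encode the chains of ferritin, which stores iron. Ftl1 stood at 3868, 5039 and 3966 CPM in microbead, against 1612 to 2163 in sham and 1513 to 2022 in naive. Fth1 stood at 4893, 3683 and 3438 CPM, against 1778 to 1959 in sham and 1461 to 2037 in naive. Their log2 fold changes were 1.24 ± 0.20 (Ftl1, adjusted p = 0.00749) and 1.18 ± 0.20 (Fth1, adjusted p = 0.0078), and both held without any 1 library. With the length trend removed the values were 0.93 (Ftl1, adjusted p = 0.126) and 0.72 (Fth1, adjusted p = 0.237). Slc40a1 encodes ferroportin, the exporter of cellular iron, and was lower in microbead. It stood at 17.2, 8.37 and 14.8 CPM, against 77.3, 99.7, 73.0 and 62.6 in sham and 64.7, 67.1, 88.0 and 72.7 in naive. No microbead library reached the lowest control. Against the control mean the log2 fold change was -2.50 ± 0.51 (adjusted p = 0.0204), and -1.87 with the length trend removed (adjusted p = 0.147). The call on Slc40a1 was lost without microbead replicate 1 (adjusted p = 0.0741), microbead replicate 2 (0.084), sham replicate 2 or naive replicate 3. Prdx5, a peroxide-reducing enzyme, rose by 1.27 ± 0.29 (adjusted p = 0.0375), and had an adjusted p of 0.28 without microbead replicate 1. Its call held only on leaving out microbead replicate 2 or naive replicate 4.

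**Figure D3:**
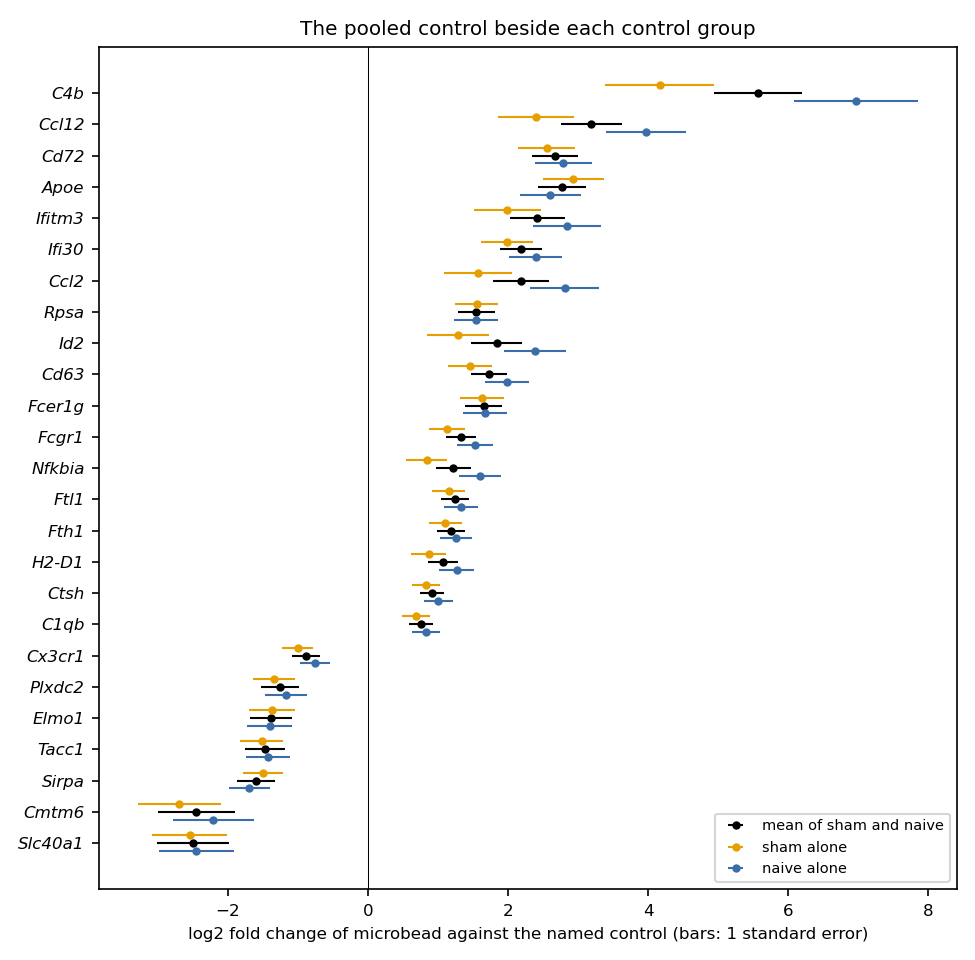
Log2 fold change with 1 standard error of 25 genes against the mean of sham and naive (black), sham alone (orange) and naive alone (blue), from 1 fit over all libraries. The 3 values of a gene share the microbead libraries. Those of Apoe and Cd72 lie close together, while for C4b, Ccl12, Ccl2 and Id2 the value against naive is the larger.

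Ribosomal protein genes formed the largest group of rises and moved with transcript length. Of 42 listed, 27 rose (64.3%) and 0 fell, with a median of 1.48. With microbead replicate 1 left out, there were 3 rises and the median was 1.07, and with the length trend removed there was 1, Rpsa, and the median was 0.60. Rpsa stood at 1255, 1290 and 659 CPM against 272 to 448 in the controls. On the log2 scale the difference was 1.55 ± 0.26 (adjusted p = 0.0078), and 2.10 with the length trend removed (adjusted p = 0.0427), and its adjusted p was 0.056 without microbead replicate 1. Rps28, one of the shortest, stood at 828, 241 and 153 CPM, and its log2 fold change of 2.42 ± 0.41 (adjusted p = 0.0078) dropped to 0.39 with the length trend removed (adjusted p = 0.599) and to 1.35 without microbead replicate 1 (adjusted p = 0.181). The highest library for Rps28 was microbead replicate 1, which also had the largest length difference. What part length had in these calls, apart from the values with the trend removed, was not tested.

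Genes of the respiratory chain also moved with length. Of 32 listed 5 rose (15.6%), Cox4i1, Cox8a, Uqcrh, Cox6a1 and Cox5a, 0 fell and 28 were positive. The median was 1.21, and 0.16 with the length trend removed, where 0 were called. When microbead replicate 1 was left out, 0 were called. Cox4i1, a subunit of complex IV, stood at 1754, 541 and 499 CPM against 147 to 252 in the controls. Against the control mean the log2 fold change was 2.22 ± 0.35 (adjusted p = 0.00711), and 1.38 with the length trend removed (adjusted p = 0.105), and 1.36 without microbead replicate 1 (adjusted p = 0.0821). Of 13 genes of the mitochondrial genome 1 rose (7.69% against 1.12% of all genes tested), mt-Co2, and all 13 were positive. Their median was 1.07, or 0.36 with the length trend removed. The adjusted p of mt-Co2 was 0.046, and 0.546 without microbead replicate 1, and the call held only on leaving out microbead replicate 3.

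**Figure D4:**
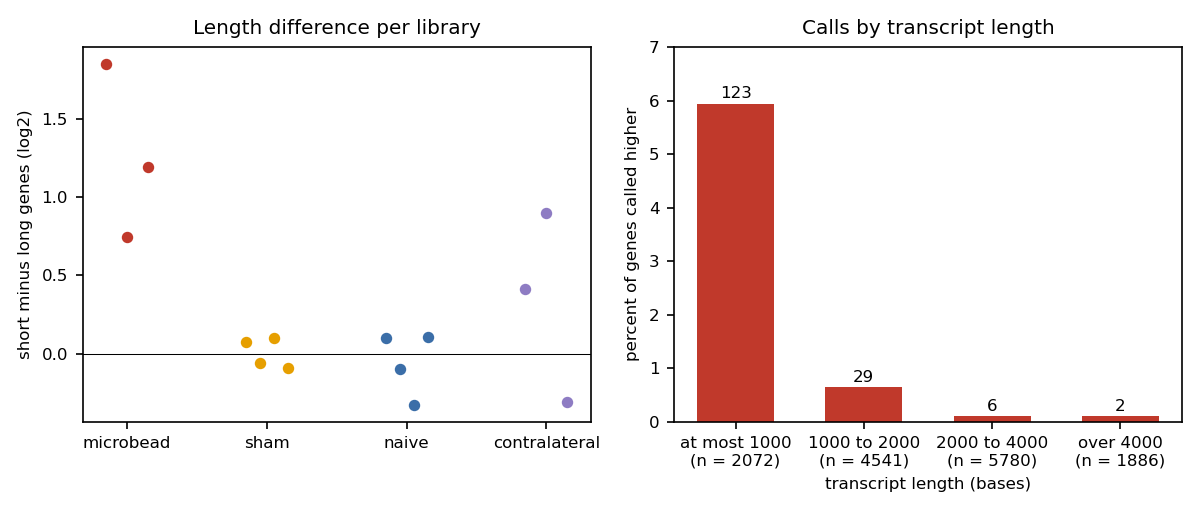
Left, difference between short genes (at most 1000 bases) and long genes (over 4000 bases) in each library, as medians of log2 CPM relative to the control mean. Right, percent of genes called higher in microbead by transcript length, with the number of genes called above each bar. The 3 microbead libraries lie at 0.74 to 1.85, above all sham and naive libraries, while contralateral replicate 2 lies at 0.90. Of the 160 rises, 123 fall in the shortest class.

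By length class, 123 of 2072 genes of at most 1000 bases were called higher (5.94%), and the class had a median log2 fold change of 0.55. The class over 2000 and up to 4000 bases had 6 rises and 17 falls among 5780 genes, with a median of -0.29. C4b, Fcgr1, H2-D1, Cd72, Apoe, Ifi30, Gpnmb, Rpsa, Ccnl1 and Npc2 were the 10 genes called with the trend removed. Of these, Npc2, a lysosomal cholesterol carrier, was not called in the full comparison (0.77 ± 0.20, adjusted p = 0.0866). Ccnl1, a cyclin tied to splicing, was called at 1.43 ± 0.29 (adjusted p = 0.0181), and 0.242 without microbead replicate 1. Npc2 and Ccnl1 are named after their values were seen. With microbead replicate 1 left out, and the trend removed, 5 genes were higher and 0 lower.

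Among the 23 falls, Sirpa was the most stable. Sirpa encodes the receptor for CD47 that restrains engulfment. It stood at 274, 688 and 536 CPM in microbead, at 1015, 1360, 1447 and 1844 in sham, and at 1376, 1499, 1744 and 1875 in naive. No microbead library reached the lowest control. Sirpa had a log2 fold change of -1.60 ± 0.27 (adjusted p = 0.0078), and it was the only fall that passed the threshold without any 1 of the 11 libraries. With the length trend removed the value was -1.18 (adjusted p = 0.105). Sirpa lies on chromosome 2 at 129592835 to 129632228 (mm10, plus strand). In the list of inhibitory receptors, Sirpa fell and Cd72 rose, and the other 18 of 20 did not pass. The list's median was -0.29, and 0.27 with the length trend removed, so its sign turned with that choice.

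Among the homeostatic microglia genes, Cx3cr1 alone passed the test. Of 30 measured, 0 rose, 1 fell and 9 had a positive log2 fold change, with a median of -0.30 against -0.12 for all genes. With the length trend removed the median was 0.00 against 0.05. Cx3cr1, the fractalkine receptor, stood at 2264, 2106 and 3626 CPM in microbead, against 4820 to 5822 in sham and 3456 to 5300 in naive. Microbead replicate 3 lay above naive replicate 1. Cx3cr1 had a log2 fold change of -0.88 ± 0.20 (adjusted p = 0.0345), and -0.35 with the length trend removed (adjusted p = 0.605). The call on Cx3cr1 held only on leaving out microbead replicate 3 or naive replicate 1, and its adjusted p was 0.173 without microbead replicate 1. P2ry12, the purinergic receptor that steers microglial processes, stood at 251, 577 and 1230 CPM against 2013 to 2184 in sham and 1229 to 2329 in naive. A log2 fold change of -1.50 ± 0.41 did not pass the test (adjusted p = 0.0948), and was -1.60 with the length trend removed (adjusted p = 0.105). It passed the test on leaving out microbead replicate 3 (-2.24, adjusted p = 0.0125). Csf1r, the survival receptor, had a log2 fold change of -0.73 ± 0.18 (adjusted p = 0.0508) and Tgfbr1 one of -0.81 ± 0.24 (adjusted p = 0.14). Tmem119 (-0.51 ± 0.22) and the lineage factor Sall1 (-0.61 ± 0.33) had adjusted p of 0.379 and 0.464, and Tmem119 passed on leaving out microbead replicate 3 (-0.91, adjusted p = 0.0295). Removing the length trend brought the log2 fold changes nearer 0, to -0.17 for Csf1r, -0.37 for Tgfbr1, -0.08 for Tmem119 and -0.17 for Sall1. In bulk RNA of sorted cells, fewer cells of a type and less RNA per cell cannot be told apart.

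The other named falls had varied roles. Tacc1, a centrosomal protein, stood at 62.5, 92.7 and 101 CPM in microbead against 178 to 307 in the controls, with a log2 fold change of -1.48 ± 0.29 (adjusted p = 0.0162, and 0.0821 without microbead replicate 1). Elmo1, which acts with Dock proteins in engulfment and migration, stood at 151, 262 and 340 CPM against 467 to 897. The difference from the control mean was, on the log2 scale, -1.39 ± 0.30 (adjusted p = 0.0279), with 0.13 without microbead replicate 1, and the call held only on leaving out microbead replicate 3 or naive replicate 1 or 4. Cmtm6, which keeps PD-L1 at the cell surface, stood at 43.1, 23.4 and 222 CPM against 228 to 803. The highest microbead library was just under the lowest control, and the log2 fold change was -2.45 ± 0.55 (adjusted p = 0.0318), with a range of -4.03 without microbead replicate 3 to -2.02 without microbead replicate 2. When microbead replicate 1 was left out, the adjusted p of Cmtm6 was 0.198, and the call held only on leaving out microbead replicate 3 or naive replicate 1. Hpgd, which inactivates prostaglandins, stood at 71.8, 18.4 and 81.8 CPM against 224 to 373 (adjusted p = 0.0487), and its call was lost when any 1 library was left out, with adjusted p up to 0.183. Exoc6b, an exocyst subunit, at 16.5, 4.57 and 5.01 CPM against 31.3 to 71.0, and Numb, an inhibitor of Notch, at 93.4, 25.8 and 45.8 CPM against 130 to 209, were also lower (adjusted p = 0.0318 and 0.0334). Both calls held only on leaving out microbead replicate 1.

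Several further falls rested on few reads in microbead. Tmem18 was at 0, 0.335 and 0 CPM in microbead against 2.30 to 74.0 in the controls, Pdia5 at 0.718, 0.223 and 0 CPM against 1.05 to 47.8, and Tspan9 at 1.44, 0 and 0.879 CPM against 11.8 to 39.2. Their adjusted p were 0.0283 for Tmem18, 0.0318 for Pdia5 and 0.0499 for Tspan9, and each call was lost without microbead replicate 1 and on leaving out at least 6 other libraries. Mcm2, a replication licensing factor and the fall of the proliferation list, had 0 reads in all 3 microbead libraries against 0.143 to 30.0 CPM in the controls. With a floor of 3 reads over the 3 microbead libraries, its level was at least 92.9-fold lower than the control mean (adjusted p = 0.0364, and 0.127 without microbead replicate 1). That call held only on leaving out sham replicate 4 or naive replicate 4. The other 20 measured proliferation genes did not pass. Among all genes tested, 806 had 0 reads in all 3 microbead libraries and 8 had 0 in all 8 controls, and 4758 had 0 in microbead replicate 1, so zeros were common in the microbead group.

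The pooled control gave more calls than either single control. From the same fit, 2 genes were called against sham alone (0.014%) and 30 against naive alone (0.21%). Of the 183 genes called against the pooled mean, 153 had an adjusted p above 0.05 in both single contrasts, which share the microbead libraries with the pooled contrast. For Cd72 the adjusted p was 0.0429 against sham and 0.00986 against naive, and for Apoe 0.0366 and 0.0244. C4b had log2 fold changes of 4.17 against sham (adjusted p = 0.0664) and 6.97 against naive (0.00414). Fcgr1 had 1.13 (0.0808) and 1.52 (0.0269), and Ccl2 had 1.57 (0.256) and 2.81 (0.0281). Slc40a1 had -2.55 (0.0725) and -2.45 (0.0651), and Sirpa had -1.50 (0.0664) and -1.70 (0.0269). Gpnmb had 9.35 (0.0753) and 6.36 (0.166). A call in the pooled contrast and none in a single one does not show that the contrasts differ.

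The groups averaged into the control were not separated by the test. Sham against naive gave 0 genes past the threshold (0%), with 380 at an unadjusted p under 0.05, while DESeq2's Wald test gave 28 and limma voom 0. The sham mean of C4b, 43.2 ± 37.4 CPM, was above the naive mean of 6.23 ± 4.11, a log2 fold change of 2.80 that did not pass (adjusted p of 1). Every microbead library lay above all 8 controls in 465 genes (3.26%) and below all of them in 399 (2.79%).

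Markers of other cells were few, and some moved with the comparison. Rod photoreceptor genes, 15 measured, had 0 calls and summed to 559 to 4655 CPM in microbead, 927 to 1739 in sham and 287 to 3530 in naive, so the groups overlapped. The markers of infiltrating monocytes and macrophages, 9 measured of 13, had 0 calls and a median of 2.78 (2.69 with the length trend removed), with 8 positive. Their summed level was 166 to 298 CPM in microbead, above sham at 44.2 to 160 and naive at 6.91 to 89.7. Averaged over the genes, the log2 difference from the control mean was -0.45, 2.78 and 3.81 in microbead. That average was -0.68 to 2.83 in sham and -1.48 to -0.25 in naive, so by it the groups overlapped. Fn1, fibronectin, was at 0, 111 and 38.3 CPM in the microbead libraries and Ccr2, the monocyte chemokine receptor, at 0, 25.3 and 21.7. Cd44 stood at 76.8, 23.3 and 25.6 CPM. Ly6c2, Chil3 and F10 had 0 reads in all libraries. Microbead replicate 1 had none of Fn1, Ccr2 and S100a4, but 4758 of the 14279 genes tested had 0 reads in that shallow library. Border-associated macrophage markers, 9 measured of 10, had 0 calls and a median of -2.41 (-2.72 with the length trend removed). Their sum was 226 to 336 CPM in microbead, under sham at 427 to 639 and naive at 382 to 573. Of the 9, 1 had a positive log2 fold change. Every microbead library lay above all controls in 1 of the 9 and below all controls in 2. Lyve1 and Cd163 were at 0 in all microbead libraries. Stab1, another of these markers, stood at 127, 197 and 217 CPM in microbead, against 325 to 409 in sham and 319 to 425 in naive. It did not pass the test (adjusted p = 0.0873). The average log2 difference of the 9 markers was -2.28, -2.48 and -1.18 in microbead. It was -1.03 to 1.78 in sham and -2.68 to 1.20 in naive, so microbead and naive overlapped. What part these cells had in the rises of chemokine, class II and MGnD genes was not tested. Neutrophil, lymphocyte, erythrocyte and amacrine cell lists had 0 members measured.

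**Figure D5:**
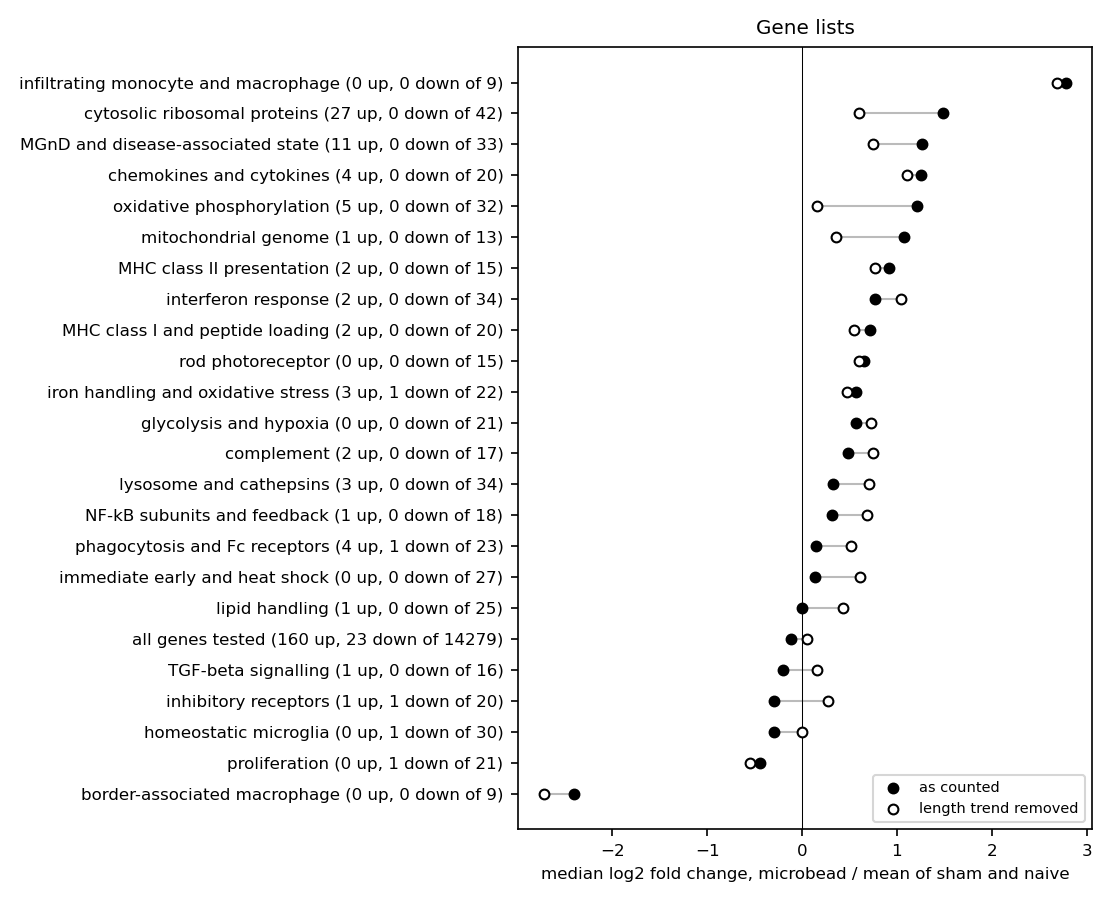
Median log2 fold change of microbead against the mean of sham and naive for each gene list, as counted (filled) and with the length trend removed (open), with the number of genes called in brackets. Ribosomal and oxidative phosphorylation lists shift the most between the 2 points, and all genes tested sit at -0.12 and 0.05.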

How the data were processed

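The authors deposited expected counts (reads estimated for each gene) in 1 table per library, unscaled per the file headers. The deposited TPM, scaled by the authors to length and depth, gave a level per length, and the deposited FPKM served to check the tables against each other. The submitters' processing notes list Salmon 1.4.0, R 4.0.3, DESeq2 1.30.1 and mm10 with no roles. The sources used here do not give which tool wrote the tables or whether counting used strand. Reads are PCR copies without molecular identifiers.

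The rounded counts were tested in R 4.3.3 with edgeR 4.0.16 after filterByExpr (minimum count 10, 14279 genes kept) and TMM scaling. All 14 libraries entered 1 robust quasi-likelihood fit with a coefficient per group (10 residual degrees of freedom, common biological coefficient of variation 1.13). Microbead minus the mean of sham and naive was tested two-sided, with Benjamini-Hochberg adjustment over all genes at 0.05. A standard error is the log2 fold change over the root of F. CPM use TMM sizes. For the length trend, a lowess fit (span 0.5) of log2 CPM against transcript length was taken out of each library by offsets. The scripts were tested on simulated data.

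Genes were named by a rule: up to 15 rises and 15 falls past the threshold, largest by fold change, averaging 10 CPM or more and with every microbead library outside the control range, without predicted genes and pseudogenes. To these were added up to 6 called genes per list (or the gene of smallest p), up to 15 called here but in neither single contrast, and a fixed panel. Of the genes this rule names, 1 is not reported here. Members and lists were chosen with earlier results of these data known. Coordinates come from GENCODE M21 and promoters from RefSeq. Alternatives were DESeq2's size factors, other filters, DESeq2 1.42.0, limma 3.58.1 (voom), fewer groups, 1 merged control, a rod covariate, a replicate block, the length trend and each library left out.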

Additional observations from a re-analysis of the deposited data

Results flagged for a closer look

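Among the named genes, 14 of 196 sham or naive groups held 1 library far from the other 3, where chance gives about 1 group in 20. None of the 14 was taken out. In sham, replicate 2 was low for Fcer1g (769 CPM against 884 to 899) and high for Cxcl13 (1.62 against 0) and Lgals3 (40.2 against 0). Sham replicate 4 was low for Cd52 (101 against 134 to 140) and high for Lpl (49.95 against 21.9 to 24.7), and sham replicate 1 was high for mt-Co2 (812 against 472 to 517) and Best1 (9.93 against 0.607 to 1.76). In naive, replicate 4 was low for Fcgr1 (228 against 286 to 292), and replicate 1 for Clec7a (97.5 against 191 to 205). Naive replicate 2 was high for Gpnmb (9.59 against 0 to 0.557) and low for Ctsh (748 against 903 to 926). Naive replicate 3 was high for Wfdc17 (3.58 against 0 to 0.164), Igf1 (5.17 against 0) and Rbpms (13.5 against 3.53 to 4.80).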

How the results depend on the processing

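Of 160 rises and 23 falls, the counts became 295 and 64 with no filter (25656 genes tested), 422 and 383 with DESeq2's Wald test, 251 and 64 with the microbead, sham and naive libraries alone, and 45 and 15 without libraries of fewer than 12000 genes. With the length trend removed they were 10 and 0, and 5 and 0 with microbead replicate 1 also left out, an alternative chosen after seeing the data. Leaving out each library gave 23 to 199 rises, the lowest without microbead replicate 1, and 4 to 100 falls, the lowest without microbead replicate 1 or naive replicate 3 and the highest without microbead replicate 3. Rises dropped to 71 to 96 without any 1 of the sham replicates and to 79 and 76 without naive replicates 2 and 3. Sham against naive gave 0 genes past the threshold, 14 with no filter and 28 with DESeq2. Tyrobp (-0.13) and Cox6a1 (-0.13) turned sign with the length trend and microbead replicate 1 both removed. The cause was not tested.

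With the replicate number as a block, 62 genes rose and 8 fell, and with the length trend also removed 3 and 0. Deviations of the 19 same-numbered pairs of libraries correlated at -0.05 to 0.14, with a median of -0.006. Pairs of different number correlated at -0.104 to 0.098, with a median of 0.003. The 3 pairs above 0.1 were all of replicate 3, among its microbead, contralateral and naive libraries. The block was left out of the main comparison because the labels do not say that replicate numbers pair retinas. Depth limits what can be seen in microbead replicate 1, where 4758 of 14279 genes had 0 reads.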

Other observations

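Of 18 genes of NF-kB subunits and feedback, 1 rose (5.56% against 1.12% of all genes tested). It was Nfkbia, an inhibitor of NF-kB that is itself a target of it. The list median was 0.31, or 0.69 with the length trend removed. Nfkbia stood at 1170, 743 and 1089 CPM in microbead against 394 to 702 in sham and 282 to 369 in naive, a log2 fold change of 1.22 ± 0.25 (adjusted p = 0.0208, and 0.138 without microbead replicate 1). Its call was also lost without microbead replicate 3, sham replicate 4 or naive replicate 3. Of 16 TGF-beta signalling genes 1 rose (6.25% against 1.12% of all genes tested). It was Id2, at 402, 186 and 217 CPM against 29.2 to 146 in the controls (1.83 ± 0.36, adjusted p = 0.0173, and 0.2 without microbead replicate 1). The median of that list was -0.20, and 0.15 with the length trend removed. It was 0.13 against sham alone and 0.07 against naive alone, so its sign turned with these choices. Immediate early and heat shock genes had 0 calls among 27, with a median of 0.13, or 0.61 with the length trend removed. That median was -0.14 against sham alone and 0.66 against naive alone, and sham against naive had 0.59. Glycolysis and hypoxia genes had 0 calls among 21, with a median of 0.57, or 0.73 with the length trend removed.

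Igfbp6, a binding protein of insulin-like growth factors, is named after its values were seen. It stood at 77.6, 8.81 and 14.4 CPM in microbead and had 0 reads in all 8 controls and all 3 contralateral libraries. With a floor of 3 reads over the 8 controls, it was at least 1073-fold higher (adjusted p = 0.0159, and 0.146 without microbead replicate 1).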
